A study of Saccharomyces cerevisiae with 12 samples.

Results

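Transcripts of 9 antioxidant genes of budding yeast and of YLR108C, the reading frame next to one of them, were followed in cells that carry the SAN1 gene and in san1 mutant cells. The San1 protein is a nuclear ubiquitin ligase that targets misfolded proteins for destruction. The 10 genes, out of 6177 in the deposited table, are AHP1 (YLR109W), YLR108C, TSA1 (YML028W), TSA2 (YDR453C), TRX1 (YLR043C), TRX2 (YGR209C), TRR1 (YDR353W), SOD1 (YJR104C), SOD2 (YHR008C) and YAP1 (YML007W). AHP1 and YLR108C were chosen by their log2 ratios in these arrays, which were lower in san1, so their values are given below as a description, with no test. The other 8 were taken for their function, though with earlier results of these data known, and these were tested.

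RNA of SAN1 cells and RNA of san1 cells were hybridized together on each of 12 2-channel arrays, 6 with cells grown in YEPD, a rich medium, and 6 with cells grown in the medium that the labels name YC. In each medium the san1 RNA was in channel 2 on arrays 1 to 3 and in channel 1 on arrays 4 to 6. The labels give total RNA, the strain name san1 and the medium; the sources used here do not give the allele, the strain background, the ages of the cultures or the recipe of YC. Each value below is a log2 ratio of san1 over SAN1 on 1 array, so a value above 0 means more of the transcript in the mutant. The table holds ratios and no signal, and levels of different genes were therefore not compared. In RNA of a whole culture, fewer cells with a transcript and less of it per cell cannot be told apart.

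Peroxiredoxins are enzymes that destroy hydrogen peroxide and organic peroxides with a reactive cysteine, which thioredoxin then reduces again. Thioredoxin reductase restores thioredoxin with electrons from NADPH, and superoxide dismutases turn superoxide into hydrogen peroxide. In yeast the transcription factor Yap1 collects in the nucleus under peroxide stress and switches on many of these genes, among them AHP1, TRX2, TRR1 and TSA1.

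The SAN1 ratio was below 0 on 12 of 12 arrays, at -4.57 to -2.69. The sign of this row was used to decide which channel is the numerator, so it is no independent check of the labels. An array held 5836 to 6180 values, and each of the 10 genes had 1 row with a value on all 12 arrays. Arrays 1 to 3 and arrays 4 to 6 differ in dye orientation, and any other difference between these sets of arrays cannot be told apart from it, here and in the dye terms below. After turning all ratios to san1 over SAN1, YEPD arrays of the same dye orientation correlated across genes at 0.54 to 0.86, whereas YEPD arrays of opposite orientation correlated at -0.40 to -0.09. In YC the corresponding ranges were 0.18 to 0.51 and 0.05 to 0.67. A linear model with 1 mean per medium and 1 dye term was fitted over all arrays with limma, and a gene was called changed at a Benjamini-Hochberg adjusted p under 0.05 over the 5890 genes tested. No label says that arrays came from separate cultures, so a p-value here measures array-to-array spread, which may be technical. Likewise, a count of arrays above or below 0 is not a count of cultures.

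YLR108C, a reading frame whose product has no established function, had the lower mean of the 2 genes chosen for their fall, in each medium. In YEPD its log2 ratio was -0.45, -0.40 and -0.30 on arrays 1 to 3 and -0.37, -0.19 and -0.33 on arrays 4 to 6. In YC it was -0.54, -0.37 and -0.32 on arrays 1 to 3 and -0.40, -0.43 and -0.26 on arrays 4 to 6. The transcript was thus below 0 on 12 of 12 arrays, in either dye orientation, and the ranges of the media overlapped. The mean was -0.34 ± 0.09 (SD, n = 6 arrays) in YEPD and -0.39 ± 0.09 (SD, n = 6 arrays) in YC, decreases of 1.27-fold and 1.31-fold. Its fitted change stood at place 5 from the lowest of 5890 genes in YEPD and at place 12 in YC.

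AHP1, which encodes a peroxiredoxin with a preference for organic peroxides, was lower by less. Its mean lay lower in YEPD than in YC, and its YEPD values lay apart by dye orientation. In YEPD it stood at -0.16, -0.07 and -0.13 on arrays 1 to 3 and at -0.30, -0.34 and -0.25 on arrays 4 to 6. All 6 were below 0, and every array with san1 RNA in channel 1 lay lower than every array with it in channel 2. In YC it stood at -0.03, -0.07 and -0.06 on arrays 1 to 3 and at 0.0022, -0.12 and -0.13 on arrays 4 to 6. Here 5 of 6 were below 0, and array 4 was at 0 within rounding. The mean was -0.21 ± 0.105 (SD, n = 6 arrays) in YEPD and -0.07 ± 0.05 (SD, n = 6 arrays) in YC, so the description of AHP1 as fallen in san1 rests mainly on YEPD. Its place from the lowest of 5890 was 35 in YEPD and 1544 in YC. The difference between the media was 0.14 (SE 0.04) for AHP1 and -0.05 (SE 0.05) for YLR108C. It was not tested, as both genes were chosen by these values. In the plot of values by array, AHP1 lies above YLR108C in each medium on average.

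**Figure D1:**
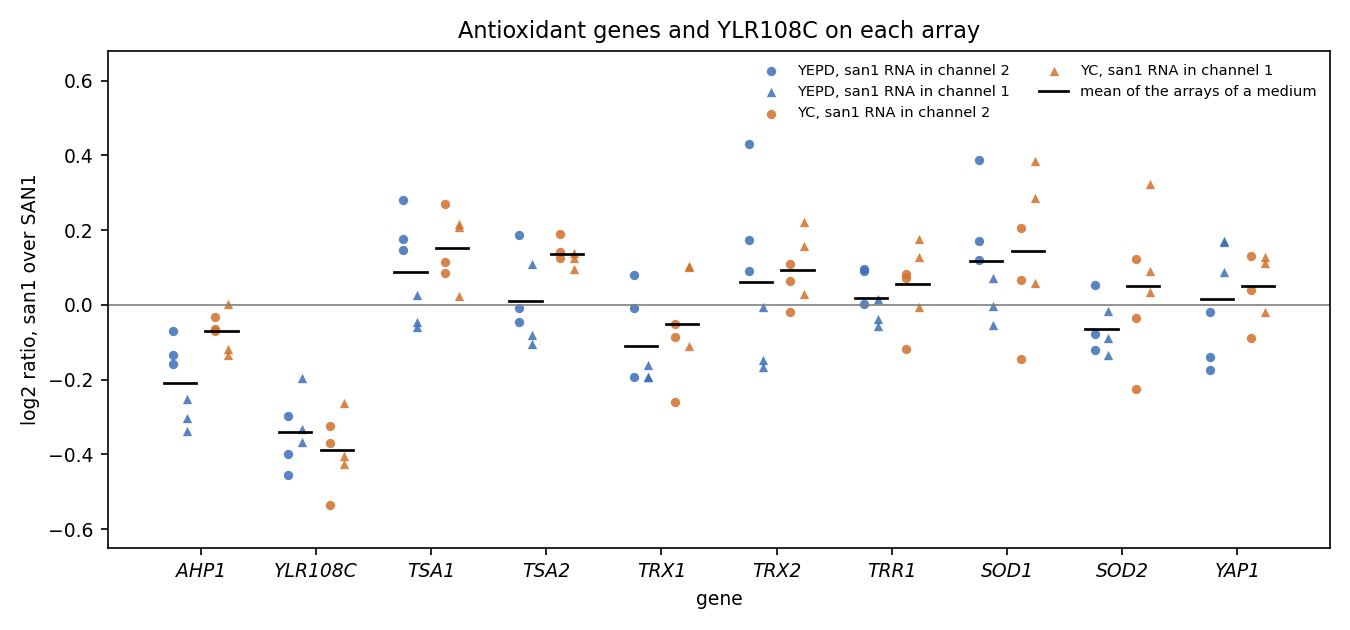
Log2 ratio of san1 over SAN1 (y axis) of the 10 genes (x axis) on each of 12 arrays, with circles for san1 RNA in channel 2, triangles for channel 1, blue for YEPD, orange for YC and a black line at the mean of the 6 arrays of a medium. YLR108C is below 0 on 12 of 12 arrays and AHP1 on 11 of 12, and the 6 YC values of TSA2 lie close together between 0.10 and 0.19.

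The 2 genes are immediate neighbours on chromosome arm XII R, with YLR108C on the Crick and AHP1 on the Watson strand, as their systematic names say, so their starts face each other across a shared stretch. None of the genes on either side was below 0 on all arrays with a value, but these were not chosen for a fall. REX3, an RNA exonuclease gene next to YLR108C, stood at 0.03 ± 0.145 (SD, n = 5 arrays) in YEPD and 0.06 ± 0.16 (SD, n = 5 arrays) in YC, and it was below 0 on 4 of 10 arrays. CCW12, a cell wall mannoprotein gene next to AHP1, stood at -0.06 ± 0.21 in YEPD and -0.08 ± 0.13 in YC (SD, n = 6 arrays each), and it was below 0 on 9 of 12. Its dye term passed in limma (adjusted p = 0.0185). REA1, a ribosome assembly ATPase gene on the far side of REX3, was at 0.04 ± 0.20 in YEPD and -0.11 ± 0.075 in YC (SD, n = 6 arrays each). It was below 0 on 6 of 6 YC arrays. In YC the means of REA1 and CCW12 lay below that of AHP1 (-0.07). YLR111W had 8 values and was left out of the fit, and it was below 0 on 5 of these 8 arrays.

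**Figure D2:**
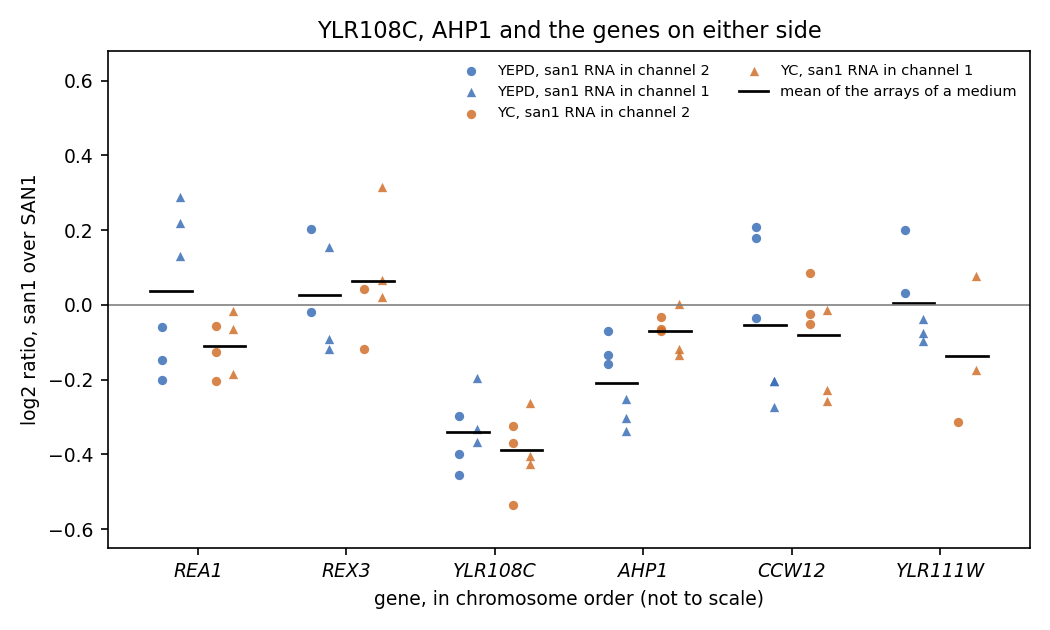
Log2 ratio of san1 over SAN1 (y axis) of 6 adjacent genes in chromosome order (x axis, not to scale) on each array, with symbols as in the plot of the 10 genes and a black line at the mean of a medium. YLR108C, which was chosen for its fall, has 12 of 12 arrays below 0, while REX3 and CCW12 spread over both sides of 0. REA1 is below 0 on 6 of 6 YC arrays.

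Over 4651 other genes with a value on all 12 arrays, the profile of YLR108C was nearest to that of ALE1, a lysophospholipid acyltransferase gene, with a root-mean-square difference of 0.16 on the log2 scale over 12 arrays. ARN2, a siderophore transporter gene (0.17), and ANB1, a translation factor gene of hypoxic cells (0.18), followed. Each of these 3 was below 0 on 12 of 12 arrays. For AHP1 the nearest were CHA1, a serine deaminase gene (0.09), BET5, a gene for a subunit of a vesicle tethering complex (0.10), and RRP45, an exosome subunit gene (0.10). These were below 0 on 11, 10 and 9 of 12 arrays. The median difference over all genes was 0.40 for YLR108C and 0.22 for AHP1. AHP1 and YLR108C differed by 0.28, which put AHP1 at place 75 among the profiles nearest to YLR108C and YLR108C at place 3867 among those nearest to AHP1. The difference includes that of the mean level, and both genes were chosen for low values. Near places and profiles below 0 therefore follow in part from that choice, and shared regulation was not tested.

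TSA1 and TSA2, the cytosolic peroxiredoxins most alike in sequence to each other, rose in YC, by 1.11-fold and 1.10-fold. TSA1 encodes the abundant enzyme, which is also a chaperone, and TSA2 its less expressed copy. Because of their likeness, probes for one may read RNA of the other. In YC, TSA2 stood at 0.13, 0.14 and 0.19 on arrays 1 to 3 and at 0.10, 0.14 and 0.13 on arrays 4 to 6. All 6 values were above 0 and lay within a range narrower than that of any other of the 10 genes in either medium. The fitted change was 0.14 (SE 0.04, limma adjusted p = 0.0158). TSA1 stood at 0.27, 0.09 and 0.12 on arrays 1 to 3 and at 0.22, 0.21 and 0.02 on arrays 4 to 6 of YC, again above 0 on 6 of 6. Its fitted change was 0.15 (SE 0.04, limma adjusted p = 0.0171). The call of TSA1 was lost without YC array 4 or without YC array 5 (limma adjusted p = 0.058 each), and that of TSA2 was kept in every alternative run (highest adjusted p = 0.0483).

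In YEPD neither copy passed. TSA2 was above 0 on 2 of 6 arrays, from a lowest of -0.10 through a median of -0.03 to a highest of 0.19 (fitted 0.01, SE 0.04, limma adjusted p = 0.969). TSA1 was at 0.15, 0.28 and 0.18 on arrays 1 to 3 and at -0.04, -0.06 and 0.03 on arrays 4 to 6, sets that did not overlap and that differ in dye orientation (fitted 0.09, SE 0.04, limma adjusted p = 0.517). The difference between the change in YC and that in YEPD did not pass the adjusted threshold for either gene. The difference was 0.13 for TSA2 (95% interval 0.02 to 0.24, limma adjusted p = 0.124) and 0.07 for TSA1 (95% interval -0.06 to 0.19, limma adjusted p = 0.49). The first interval leaves out 0 because it is not adjusted for the 5890 genes.

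The thioredoxin system did not pass in either medium. TRX2, the Yap1-driven one of the 2 cytosolic thioredoxin genes, was at 0.43, 0.17 and 0.09 on YEPD arrays 1 to 3 and at -0.17, -0.01 and -0.15 on arrays 4 to 6. The dye orientations thus lay on opposite sides of 0, and their mean was 0.06 ± 0.22 (SD, n = 6 arrays). In YC it ran from -0.02 through a median of 0.09 to 0.22 and was above 0 on 5 of 6 arrays (fitted 0.09, SE 0.06, limma adjusted p = 0.273). TRX1, the other cytosolic thioredoxin gene, had the lowest fitted change of the 8 tested genes in YEPD, at -0.11 (SE 0.05, limma adjusted p = 0.503), with 5 of 6 arrays below 0. In YC its values ran from -0.26 through a median of -0.07 to 0.10 (fitted -0.05, SE 0.05, limma adjusted p = 0.502). TRR1, the cytosolic thioredoxin reductase gene, stood at 0.02 (SE 0.04) in YEPD and 0.06 (SE 0.04) in YC, with no single array beyond -0.12 or 0.18.

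The superoxide dismutase genes did not pass, and in YC they varied more between arrays than the other 8 genes. SOD1, for the copper and zinc enzyme of the cytosol, ran from -0.05 through a median of 0.10 to 0.39 in YEPD (fitted 0.12, SE 0.07, limma adjusted p = 0.663). In YC it stood at -0.14, 0.21 and 0.07 on arrays 1 to 3 and at 0.28, 0.39 and 0.06 on arrays 4 to 6 (fitted 0.14, SE 0.07, limma adjusted p = 0.131). Array 1 was the single YC array below 0, and without it SOD1 passed (limma adjusted p = 0.026). SOD2, for the manganese enzyme of mitochondria, ran from -0.13 to 0.05 in YEPD with 1 of 6 arrays above 0 (fitted -0.06, SE 0.05, limma adjusted p = 0.791). In YC it ran from -0.22 to 0.32, low on array 1 and high on array 5 as SOD1 was (fitted 0.05, SE 0.05, limma adjusted p = 0.497).

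YAP1 itself, the gene of the transcription factor, did not pass in YEPD (0.02, SE 0.04, limma adjusted p = 0.953) or YC (0.05, SE 0.04, limma adjusted p = 0.389). In YEPD its values were -0.14, -0.17 and -0.02 on arrays 1 to 3 and 0.09, 0.17 and 0.17 on arrays 4 to 6. They were below 0 in one dye orientation and above 0 in the other. In YC they ran from -0.09 through a median of 0.08 to 0.13.

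Counted together, 0 of the 8 genes chosen for function passed in YEPD in limma, where 2.04% of all genes tested did, and 1 of the 8 (TRX1) had an unadjusted p under 0.05. In YC 2 of 8 passed, both upward, beside 24.8% of all genes in either direction and 13.0% upward. With so high a share of all genes called in YC, 2 of 8 is not a result about these genes. For the difference between media 0 of 8 passed in limma, beside 9.75% of all genes (5.48% with the higher and 4.26% with the lower value in YC), and 1 of 8 (TSA2) had an unadjusted p under 0.05. These shares of all genes are at the adjusted p. The share of all genes at an unadjusted p under 0.05 was not counted, so the unadjusted counts have no share beside them. The median fitted change of the 8 was 0.02 in YEPD and 0.08 in YC, against 0.002 and -0.0016 over all genes. In YC the order from the highest was TSA1, SOD1, TSA2, TRX2, TRR1, SOD2, YAP1 and TRX1, and neighbours in this order, other than TSA2 with TRX2 and YAP1 with TRX1, differed by less than the SE of either gene. Differences between genes were not tested. The intervals of the media difference reached at most 0.27 upward (SOD2) and -0.18 downward (SOD1), so larger differences between media were outside the 95% intervals of all 8 genes.

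Several of the 8 tested genes differed between the orientations in YEPD. With 1 dye term for both media, 0 of the 8 had a dye term that passed in limma, beside 16.4% of all genes. With a dye term per medium, 3 of the 8 genes had a YEPD dye term that passed in limma, beside 23.9% of all genes. They were TSA1 (adjusted p = 0.0391), TRX2 (0.0192) and YAP1 (0.0246). In YC 0 of the 8 and 0.0% of all genes passed in limma, with 841 genes at an unadjusted p under 0.05. Such a term cancels in the mean of a medium, which holds 3 arrays of each orientation.

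Of 58 further genes of antioxidant defence in 6 lists, 9 rose and 10 fell in YC, while 0 rose and 1 fell in YEPD, beside 13.0% of all genes rising and 11.8% falling in YC and 1.71% and 0.323% in YEPD. The median change of the 58 was 0.01 in YC. The other 39 did not pass in YC.

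**Figure D3:**
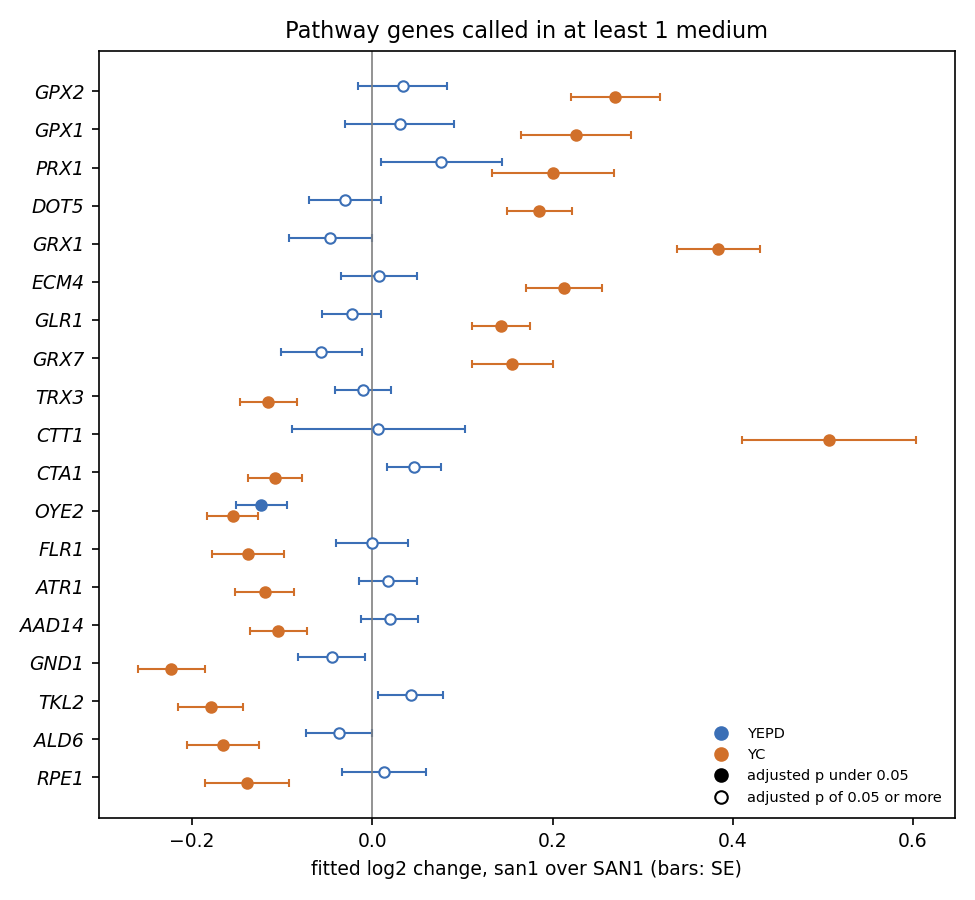
Fitted log2 change, san1 over SAN1, with its SE (x axis) for the 19 genes of the pathway lists called in at least 1 medium (y axis), in blue for YEPD and orange for YC, filled where the adjusted p was under 0.05. In YC the plotted peroxidase, glutaredoxin and catalase T genes, ECM4 and GLR1 lie to the right of 0. TRX3, CTA1, the genes of NADPH supply and OYE2, FLR1, ATR1 and AAD14 lie to the left. Genes that did not pass are not plotted, such as YCF1, GRX4 and MXR1, each the lowest of its list in YC (-0.22, -0.12 and -0.10). In YEPD only OYE2 was called.

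Among 8 genes of other thiol peroxidases and of oxidized-protein repair, 4 were called higher in YC, none lower, and 4 did not pass in limma (list median 0.13). Beside this, 13.0% of all genes were called higher in YC. GPX2, a glutathione peroxidase gene driven by Yap1, stood at 0.24, 0.27 and 0.40 on arrays 1 to 3 and 0.42, 0.20 and 0.08 on arrays 4 to 6 (fitted 0.27, SE 0.05, limma adjusted p = 0.0026). DOT5, a nuclear thiol peroxidase gene, was above 0 on 6 of 6 YC arrays (0.19, SE 0.04, limma adjusted p = 0.00433). GPX1, another glutathione peroxidase gene, rose by 0.23 (SE 0.06, limma adjusted p = 0.0171), on 6 of 6 arrays. This call was lost without YC array 3 (0.0588) or YC array 5 (0.0568). PRX1, the mitochondrial peroxiredoxin gene, was close to the threshold (0.20, SE 0.07, limma adjusted p = 0.0456), lay at -0.12 on YC array 1 and lost its call in 18 of 26 alternatives, among them the omission of any 1 of YC arrays 2 to 6. In YEPD 0 of the 8 passed in limma, beside 2.04% of all genes, and 0 had an unadjusted p under 0.05.

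Of 15 genes of mitochondrial thioredoxin, glutaredoxins and glutathione, 4 rose, 1 fell and 10 did not pass in YC. Of all genes, 13.0% rose and 11.8% fell in YC. GRX1, a cytosolic glutaredoxin gene, showed the highest change of the list, at 0.34, 0.36 and 0.51 on YC arrays 1 to 3 and 0.34, 0.46 and 0.29 on arrays 4 to 6. All 6 lay above its 6 YEPD values, which ran from -0.28 to 0.23. It rose by 0.38 in YC (SE 0.05, limma adjusted p = 0.000197) and was at -0.05 in YEPD (limma adjusted p = 0.855), and the difference of 0.43 passed (SE 0.07, limma adjusted p = 0.0042), though not with arrays n and n plus 3 averaged (0.0547). ECM4, a glutathione transferase gene, rose by 0.21 (SE 0.04) and GLR1, the glutathione reductase gene, by 0.14 (SE 0.03), each on 6 of 6 YC arrays. GRX7, a glutaredoxin gene of the Golgi named after its value was seen, rose by 0.16 (SE 0.05). TRX3, the mitochondrial thioredoxin gene, fell by 0.12 in YC (SE 0.03, limma adjusted p = 0.0172). That call was lost in 6 of 26 alternatives, among them the omission of YC array 3 (0.0511) or YC array 6 (0.0587) and the averaging of arrays n and n plus 3 (0.059). The averaging also ended the call of GLR1 (0.0501).

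The catalases moved in opposite directions in YC. CTT1, the cytosolic catalase gene of the general stress response, rose by 0.51 (SE 0.10, limma adjusted p = 0.00451). It was at 0.24, 0.87 and 0.61 on YC arrays 1 to 3 and at 0.17 and 0.62 on arrays 4 and 6, with no value on array 5. CTA1, the peroxisomal catalase gene, fell by 0.11 (SE 0.03, limma adjusted p = 0.0194). Its dye term passed (limma adjusted p = 0.00908), with 0.05, -0.06 and 0.02 on YC arrays 1 to 3 against -0.23, -0.21 and -0.22 on arrays 4 to 6. The call was lost without YC array 2 (0.0577) or array 6 (0.0509), without a dye term (0.176), with each medium fitted alone (0.0562) and with arrays n and n plus 3 averaged (0.0884). The other 3 genes of this list of 5, which holds CCP1, CCS1 and MTM1, did not pass. They encode a mitochondrial cytochrome c peroxidase, the copper chaperone of Sod1 and a mitochondrial carrier that Sod2 needs for its manganese.

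Yap1 targets outside the thiol systems did not rise in YC. Of 12 such genes, 4 fell and 8 did not pass in limma, and 0 were called higher (list median -0.07). Of all genes, 11.8% were called lower and 13.0% higher in YC. YCF1 had the lowest fitted change of the list in each medium (-0.20 in YEPD and -0.22 in YC) but did not pass in either. OYE2, an NADPH dehydrogenase gene, was below 0 on 12 of 12 arrays. It fell by 0.15 in YC (SE 0.03, limma adjusted p = 0.00255) and by 0.12 in YEPD (SE 0.03, limma adjusted p = 0.0419). The YEPD call was kept in only 12 of 26 alternatives. It was lost without any 1 of the 6 YEPD arrays (limma adjusted p up to 0.155) and with arrays n and n plus 3 averaged (0.27). The drug transporter genes FLR1 (-0.14, SE 0.04, limma adjusted p = 0.0234) and ATR1 (-0.12, SE 0.03, limma adjusted p = 0.0175) and the dehydrogenase gene AAD14 (-0.10, SE 0.03, limma adjusted p = 0.0289) were below 0 on 6 of 6 YC arrays. Leaving out YC array 4 or YC array 6 ended all 3 of these calls. YC array 1 or 3 did so for FLR1, and array 2, 3 or 5 for AAD14. Averaging arrays n and n plus 3 also ended the calls of FLR1 (0.087), ATR1 (0.0788) and AAD14 (0.1). Of 8 genes for Yap1 partners and relatives, SKN7 and YBP1 among them, 0 passed in either medium in limma, with 1 at an unadjusted p under 0.05 in YEPD and 2 in YC. At the adjusted p, 2.04% of all genes passed in YEPD and 24.8% in YC, and the share at the unadjusted p was not counted.

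The pentose phosphate pathway, a main source of the NADPH that thioredoxin and glutathione reductases use, held genes that fell in YC. Of 10 genes of NADPH supply, 4 fell and 6 did not pass in limma, and 0 were called higher. Beside this, 11.8% of all genes were called lower in YC and 24.8% in either direction. The fitted change was below 0 for 10 of 10 (list median -0.12). GND1, the main 6-phosphogluconate dehydrogenase gene, fell by 0.22 (SE 0.04, limma adjusted p = 0.00154) and TKL2, a transketolase gene, by 0.18 (SE 0.04, limma adjusted p = 0.00418), each on 6 of 6 YC arrays. ALD6, a cytosolic aldehyde dehydrogenase gene, fell by 0.17 (SE 0.04, limma adjusted p = 0.012, measured on 5 YC arrays), a call lost with the array number as a block (0.0607). RPE1 stood at the threshold (-0.14, SE 0.05, limma adjusted p = 0.0456), and its call was lost in 17 of 26 alternatives, among them the omission of any 1 of YC arrays 1 to 4 or 6.

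General stress genes differed between the YC arrays, and only some of the genes above were low on the same arrays. The median of 21 such genes was 0.02, 0.67 and 0.44 on YC arrays 1 to 3. On YC arrays 4 to 6 it was 0.0031, 0.65 and 0.35. Arrays n and n plus 3 thus ran in the same order, with medians near each other. No label says whether such arrays share RNA, so arrays 1 and 4 may not be separate observations. Of the 21 genes, 15 rose and 6 did not pass, beside 13.0% of all genes rising in YC. The median hides that some stress genes were above 0 on arrays 1 and 4 too, such as the small heat shock gene HSP26 at 0.71 and 0.81 and the membrane protein gene HSP12 at 0.92 and 1.39. CTT1, which had no value on array 5, and PRX1 were lowest on arrays 1 and 4, where the stress median was near 0. PRX1 was nearly as low on array 6 (0.11) as on array 4 (0.10). TSA1 did not follow this order, with its highest values on arrays 1 and 4, and TSA2 was nearly level over the 6 arrays. SOD1 and SOD2 were low on array 1 but not on array 4. Of the other pathway genes called higher in YC, GPX1, ECM4 and GLR1 were lowest on array 1. GPX2, DOT5, GRX1 and GRX7 were lowest on array 6, and GPX2 was highest on array 4 (0.42). The part of general stress genes in the results above was not tested. In YEPD the same median lay between -0.02 and 0.11.

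**Figure D4:**
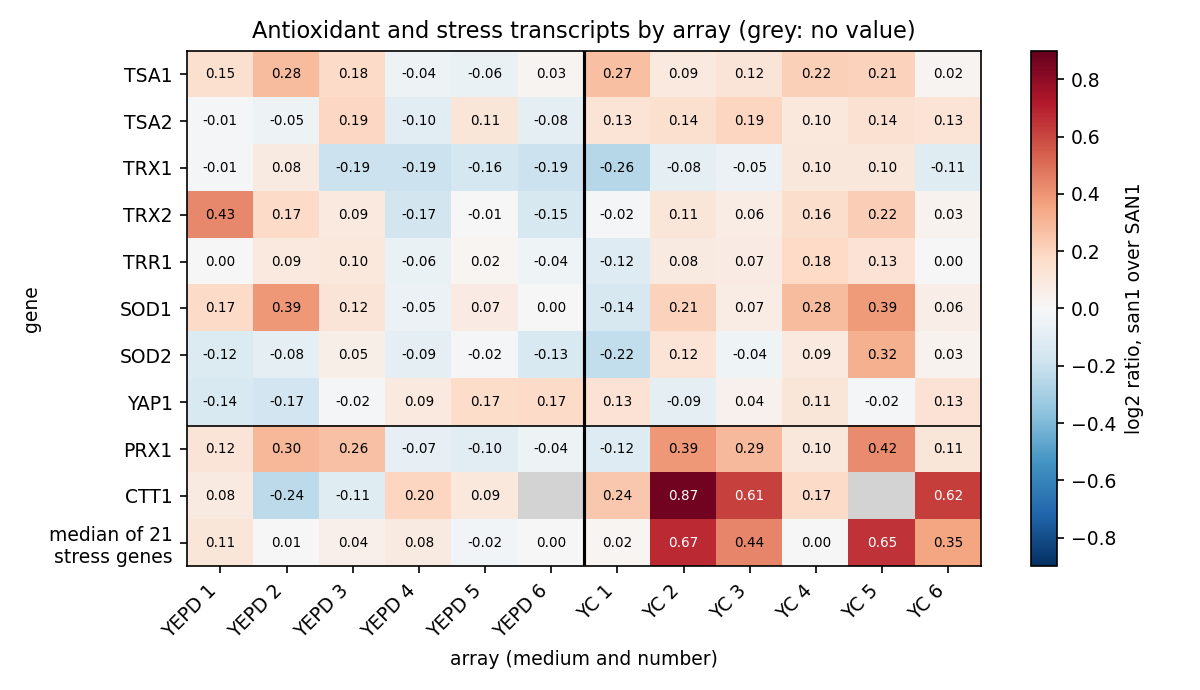
Log2 ratio of san1 over SAN1 (colour and printed value) on each of 12 arrays (x axis) for the 8 tested genes, for PRX1 and CTT1, and for the median of 21 general stress genes (y axis), grey where there was no value. The stress median is 0.35 or higher on YC arrays 2, 3, 5 and 6 and near 0 on YC arrays 1 and 4. CTT1, with no value on YC array 5, and PRX1 are lowest on YC arrays 1 and 4. PRX1 is nearly as low on YC array 6 (0.11) as on array 4 (0.10). The other pathway genes called higher in YC are not plotted here. TSA1 is highest on YC arrays 1 and 4, and TSA2 lies between 0.10 and 0.19 in YC.

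Some of the genes next to the 8 tested members are given here, as values. The one with the mean farthest from 0 in YC was YPQ2, next to TRR1. It stood at -0.03 ± 0.10 in YEPD and -0.18 ± 0.05 in YC (SD, n = 6 arrays each), below 0 on 6 of 6 YC arrays. PPN1, a polyphosphatase gene next to TSA2, was at 0.02 ± 0.16 in YEPD and 0.12 ± 0.14 in YC (SD, n = 6 arrays each). USA1 and YOX1, on either side of TSA1, stood at -0.07 ± 0.125 and -0.01 ± 0.05 in YC (SD, n = 6 arrays each). ADO1, the adenosine kinase gene next to SOD1, was at -0.14 ± 0.19 in YC (SD, n = 6 arrays) and PDC1, the pyruvate decarboxylase gene next to TRX1, at -0.03 ± 0.40 (SD, n = 6 arrays). PDC1 ran from -0.55 to 0.50 in YC, above 0 on arrays 1 to 3 and below 0 on arrays 4 to 6.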

How the data were processed

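The deposited table gives 1 log2 ratio of the 2 channels per array and row, centred near 0 by the authors, as its column medians show; base 2 was assumed, and the sources used here give no scanner, background correction, normalization, filter or probe sequence. Were the logarithm natural, folds would be larger, with the same signs and tests. The numerator was read as channel 2 from the SAN1 row. Of 6204 rows, 5704 matched a locus tag and 42 a synonym of the RefSeq gene table (assembly R64), taken for gene names and chromosome order. Several rows existed for 27 genes and were averaged. For YC arrays 1 to 3 the title was followed where the description says YEPD.

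Values were centred by array median and given the sign of san1 over SAN1. Genes needed 2 values in each orientation of each medium. limma 3.58.1 in R 4.3.3 fitted a mean per medium and 1 dye term (prior degrees of freedom 3.76), two-sided. The fit was tested on simulated data. Alternatives covered centring, scaling, dye term, arrays fitted, array number, pairs of arrays, filters, variance model and each array left out. The genes and lists were chosen with earlier results of these data known. The named genes are the 10, SAN1, up to 4 called genes per list and medium (of the stress list only counts and the genes that differed between media), neighbours, and the 3 nearest profiles. Promoter and protein sequences were not used here.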

Additional observations from a re-analysis of the deposited data

Results flagged for a closer look

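The san1 effect differed between YC and YEPD, by the contrast of the 2 media in limma, for 13 of the named genes. None of them was among the 8 tested antioxidant genes. Of all genes tested, 9.75% passed for this contrast. Most of the 13 were named because they were called in YEPD, in YC or in this contrast, so their number is not a result. YC minus YEPD was 0.22 for DOT5 (adjusted p = 0.0314), 0.43 for GRX1 (0.0042), 0.21 for ECM4 (0.0474), 0.17 for GLR1 (0.04) and 0.50 for CTT1 (0.0436). It was -0.15 for CTA1 (0.0387), -0.18 for GND1 (0.05, just under the threshold before rounding) and -0.22 for TKL2 (0.0214), and -0.15 for YPQ2 (0.0281), the vacuolar transporter gene next to TRR1. Among the stress genes it was 0.66 for HSP26, 0.54 for MSC1, 1.33 for HSP12 and 0.59 for STF2. When arrays n and n plus 3 of a medium were averaged and counted once, the adjusted p of GRX1 became 0.0547, of TKL2 0.0877, of DOT5 0.125, of ECM4 0.129, of GLR1 0.142, of CTA1 0.146, of GND1 0.141, of YPQ2 0.123 and of CTT1 0.193, and that of the 4 stress genes lay between 0.0596 and 0.0826. With the array number as a block the calls of GRX1 (0.042) and the 4 stress genes (0.007 to 0.0328) were kept, and those of the other 8 genes were lost (0.0661 to 0.164). Leaving out 1 array ended the call in 10 cases for CTA1, 9 each for ECM4 and GND1, 8 for GLR1, 7 for CTT1, 5 for DOT5, 4 for YPQ2 and 2 for TKL2, and in 0 for GRX1 and the 4 stress genes. In none of 115 groups of 4 to 6 arrays did a single array stand apart by Dixon's test.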

How the results depend on the processing

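Over 26 alternatives, 612 of 616 values of the 8 tested genes kept their side of the threshold. The exceptions were TSA1 in YC with the array number as a block (adjusted p = 0.0642) and without YC array 4 or 5, and SOD1 in YC without YC array 1. The number of the 8 that passed in YC was therefore 1 with the array number as a replicate block, and 1 to 3 with an array left out; in YEPD and for the difference it was 0 throughout. The block rests on a shared number alone, and 1 of 6 arrays correlated best with its own number among the arrays of its orientation (correlations of same-numbered arrays -0.34 to 0.22). The means of AHP1 and YLR108C stayed within 1 SD in each medium, with an array left out at -0.23 to -0.19 and -0.37 to -0.32 in YEPD and at -0.10 to -0.06 and -0.41 to -0.36 in YC.

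Over all genes, calls in YEPD numbered 120, but 65 with arrays n and n plus 3 averaged, and 79 to 135 with an array left out. In YC they numbered 1462, but 944 with each medium fitted alone, 902 with the replicate block, 816 with averaged pairs, and 966 to 1554 with an array left out. For the difference they numbered 574, but 244 without a dye term, 46 with the replicate block, 3 with averaged pairs, 200 with YEPD arrays 4 and 6 averaged, and 167 to 799 with an array left out. The arrays whose omission moved a count by over 1.5 times were YEPD array 1 for YEPD (79), YC array 6 for YC (966), and for the difference YEPD arrays 1 (199), 3 (334), 4 (167) and 6 (203) and YC arrays 3 (305) and 6 (252). That average was chosen after seeing the data, since these arrays lay closest together (SD of their difference 0.106, against 0.155 to 0.175 for other YEPD arrays of 1 orientation, with 0 equal values). No label says that arrays n and n plus 3 share RNA. Their deviations from the means of their orientation correlated across genes at 0.42, 0.27 and 0.05 in YEPD and at 0.37, 0.56 and -0.23 in YC. Fewer arrays or residual degrees of freedom remain in the block, the averages and the single-medium fits. Background correction and a filter on dim spots could not be varied on log ratios, and the signal over background of each gene is unknown.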
